A study of Mus musculus with 29 samples.

Results

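The transcripts of 8 genes that restrain or sense the energy supply of a B cell were measured in sorted bone marrow pro-B cells with and without the transcription factor Pax5. The genes were Nr3c1, Tsc22d3, Txnip, Insr, Cnr2, Stk11, Prkaa1 and Prkab1. They were taken by name, each matched 1 entry in every RNA-seq table, and they make up 8 of the 24732 entries of the mm9 tables and 8 of the 25588 entries of the mm10 tables. All mice were C57BL/6, and polyA RNA was sequenced from cells sorted ex vivo by flow cytometry. The compared groups were 3 libraries of wild-type (Pax5+/+) pro-B cells and 2 libraries of Pax5-/- pro-B cells, called here the cells with and without Pax5, whose mice have no stated age. A further group of 3 libraries came from pooled pro-B cells of 3-week-old mice that carry Meox2-cre, a Cre recombinase expressed from the Meox2 locus throughout the animal. The labels give the latter mice as Pax5(+/+), and the study's text names its 3-week-old control mice Pax5+/+. The study's sample listing gives the Meox2-cre mice as heterozygous for Pax5, so their genotype is open here. Pax5 was at 394, 376 and 397 TPM in them. No label says whether libraries of a genotype came from separate mice, and the p-values therefore measure the spread between these samples, which may be technical.

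The transcription factors PAX5 and IKAROS are known for holding down glucose uptake and ATP reserves in B cell precursors. The glucocorticoid receptor (NR3C1), the glucose uptake inhibitor TXNIP and the cannabinoid receptor CNR2 have been described as effectors of this brake, and the insulin receptor as one of the genes it holds down. The kinase LKB1, the product of Stk11, senses energy stress together with AMPK, a complex of an alpha catalytic subunit (Prkaa1), a beta scaffold subunit (Prkab1) and a gamma nucleotide-binding subunit.

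Txnip was the member with the smallest adjusted p between genotypes, and Stk11 the one with the highest level in the mm9 tables. Their promoter windows are therefore shown, each covering 250 bases before and 50 bases after the annotated start (RefSeq sequence, GRCm38.p6). The window of Txnip is chr3:96557707-96558006 and that of Stk11 is chr10:80115545-80115844, both on the plus strand. Capitals mark the forkhead motif GTAAACA, which FOXO factors can bind, and in Txnip also a pair of E-box-like elements (CACGNG at either end of a 5-base gap), the kind through which the glucose sensor MondoA (Mlxip) and its partner Mlx are known to act.
Txnip: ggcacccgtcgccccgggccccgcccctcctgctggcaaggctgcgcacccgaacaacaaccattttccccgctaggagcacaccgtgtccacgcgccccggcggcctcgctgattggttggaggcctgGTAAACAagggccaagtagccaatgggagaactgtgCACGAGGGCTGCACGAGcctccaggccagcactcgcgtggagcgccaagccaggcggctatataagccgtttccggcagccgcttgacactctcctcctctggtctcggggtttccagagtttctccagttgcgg
Stk11: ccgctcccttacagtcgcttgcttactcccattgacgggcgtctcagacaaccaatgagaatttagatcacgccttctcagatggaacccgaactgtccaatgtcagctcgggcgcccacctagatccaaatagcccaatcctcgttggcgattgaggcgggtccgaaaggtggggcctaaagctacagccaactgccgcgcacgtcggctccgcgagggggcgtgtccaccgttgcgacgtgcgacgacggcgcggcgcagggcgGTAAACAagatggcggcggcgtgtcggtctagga
The forkhead motif began at base 130 of the Txnip window and at base 267 of the Stk11 window, and the paired element spanned bases 166 to 182 of the Txnip window. On either strand, 3.65% of all 32851 promoter windows of this length held the forkhead motif, and 16 windows (0.0487%) held the paired element. The canonical E box CACGTG was in 7.15% of all windows and the palindromic glucocorticoid response element (AGAACA and TGTTCT around 3 bases) in 3 windows. Neither was in any of the 9 member windows searched, which belong to 6 of the members. A letter match is a description of the sequence and not a binding site.

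The tables hold TPM, transcript abundances per gene length that sum to 1000000 in every library, so the depth in reads is unknown and levels of different genes can be compared within a library. Pax5, the deleted gene, was at 342, 386 and 391 TPM in Pax5+/+ cells and at 43.0 and 39.1 TPM in Pax5-/- cells, a difference of -3.17 ± 0.11 (SE) on the log2(TPM + 0.5) scale. The labels and the Pax5 level therefore pointed the same way in all 5 libraries, although reads of Pax5 remained in the mutant ones, and values per gene do not show whether those reads lie in the deleted part. Of 12 pro-B markers, 9 were lower in the Pax5-/- libraries. The mutant progenitors were sorted with another gate, which included Ly6D, than the Pax5+/+ pro-B cells, so the genotype and the gate cannot be told apart. The Pax5+/+ libraries differed among themselves, with replicate 1 the lowest of them for 6514 of the 12066 genes tested and replicate 3 the highest for 6450, and replicate numbers only name the libraries. The summed level of 7 myeloid markers was 45.9, 252 and 192 TPM in Pax5+/+ replicates 1 to 3 and 55.4 and 83.7 TPM without Pax5.

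Of the 8 genes, only Txnip passed an adjusted p of 0.05 between the genotypes, and it was lower without Pax5 (limma on log2(TPM + 0.5), adjusted over all 12066 genes tested). For comparison, 21.5% of all genes tested were called lower and 15.6% higher (37.1% in all), so a count of 1 lower and 0 higher among 8 members is not above this background. The split over all genes depended on the scaling, with 2596 lower and 1885 higher here, 2249 and 2413 with median-ratio scaling, and 2421 and 2455 with quantile normalization. At an unadjusted p of 0.05, 3 members passed (Txnip, Insr and Stk11), against 47.3% of all genes. No member passed the thresholds of the study's methods, which ask for more than 3-fold and more than 5 TPM and were passed by 5.86% of genes. The 95% intervals of all 8 members lay within 3-fold in either direction. The estimates of 5 members were lower and those of 3 higher without Pax5, with a median of -0.25, against -0.12 over all genes. In 4 members (Txnip, Insr, Stk11 and Prkab1) both Pax5-/- libraries lay below all Pax5+/+ libraries, which 37.4% of genes did, and no member had both above, as 26.1% of genes had (63.4% in all). In the other 4 members the libraries overlapped. An exact permutation test over the 10 splits of 5 libraries cannot give a p below 0.1, so single genes rest on the fit across all genes.

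**Figure D1:**
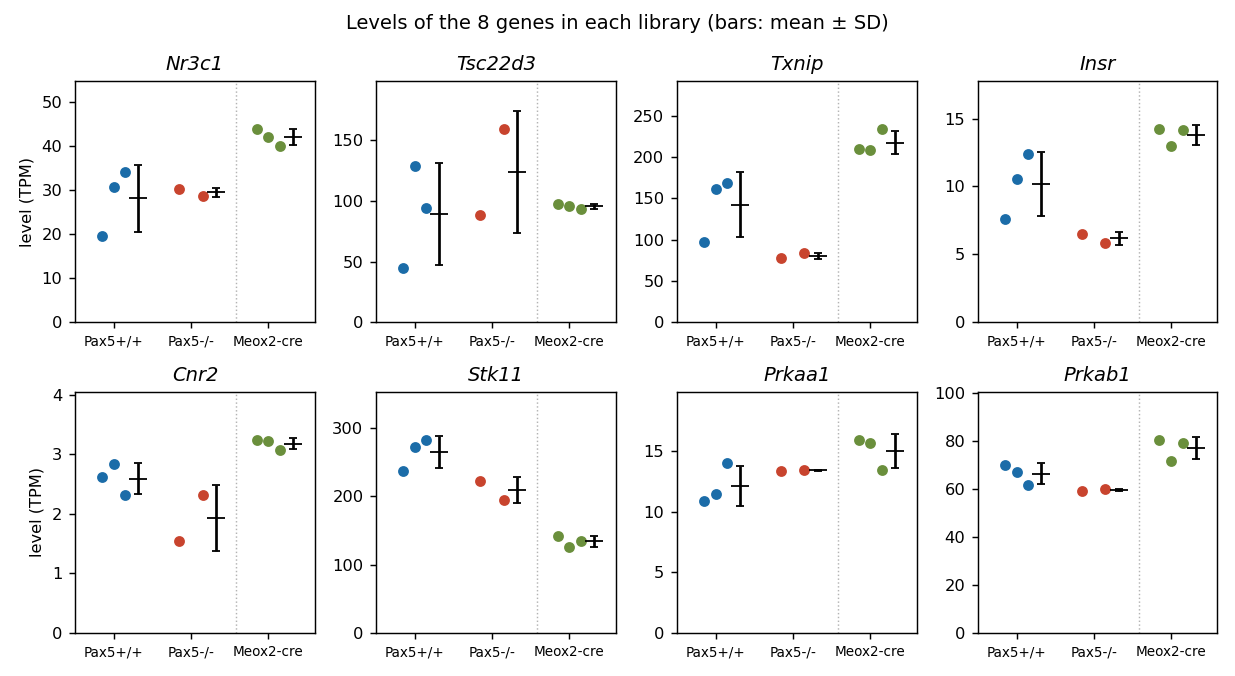
Level of each of the 8 genes (TPM, linear axis from 0) in every library of the Pax5+/+ (blue), Pax5-/- (red) and Meox2-cre (green) groups, with mean and SD beside the points. The dotted line separates the mm10 tables of the Meox2-cre group, which were made with other software, and the Pax5-/- points lie below all Pax5+/+ points for Txnip, Insr, Stk11 and Prkab1.

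Txnip encodes an alpha-arrestin that binds thioredoxin and removes glucose transporters from the cell surface. Its level was 96.6, 162 and 169 TPM with Pax5 and 78.1 and 83.2 TPM without it. Every Pax5-/- value was below every Pax5+/+ value, with Pax5+/+ replicate 1 closer to the mutant libraries than to the other Pax5+/+ libraries. The means were 142 ± 39.7 TPM (SD, n = 3) and 80.7 ± 3.62 TPM (SD, n = 2), and the difference was -0.77 ± 0.23 (SE) on the log2 scale, with a 95% interval of -1.31 to -0.24 (limma, adjusted p = 0.0336). Without Pax5+/+ replicate 1 it was -1.03 (adjusted p = 0.00097), but without any of the other libraries it was no longer past the threshold. The adjusted p was 0.10 without Pax5+/+ replicate 2, 0.0842 without Pax5+/+ replicate 3, 0.207 without Pax5-/- replicate 1 and 0.188 without Pax5-/- replicate 2.

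Pax5+/+ replicate 1 was the lowest of its group for 6514 of the 12066 genes tested. The myeloid marker sum was, like Txnip, low in that library and in both Pax5-/- libraries. Of the 7 markers, 2 were called lower in the Pax5-/- libraries (Itgam and Elane), whereas Mpo, at 11.1, 34.5 and 19.0 TPM with Pax5 and at 37.8 and 42.1 TPM without it, lay above all Pax5+/+ libraries and did not pass (1.02). S100a8 and Elane were at 0 in Pax5-/- replicate 1. In the Meox2-cre libraries the sum was 596, 1217 and 440 TPM and Txnip was 209.5, 208.9 and 233.7 TPM. The part of myeloid cells in the Txnip difference was not tested, and in bulk samples fewer cells of a type and less RNA per cell cannot be told apart. Erythroid markers also differed, with sums of 19.4, 44.6 and 57.5 TPM against 9.78 and 4.55 TPM, whereas Hbb-b1 was listed at 0 in all libraries and Hba-a1 in all but 1.

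The Txnip entry (mm9, chromosome 3, 96361880 to 96365806, plus strand) carries a mark in the table that was read as an overlap with another gene. The lincRNA gene Gm15441 lies across it on the opposite strand, and the counting was not stated to use strand. Gm15441 was at 0.59 to 0.88 TPM with Pax5 and at 0.18 and 0.64 TPM without it. The 2 genes most like Txnip in their pattern were taken from 9840 compared, by the difference over the 5 libraries after each gene was centred on its own mean, so their likeness is a description. Ctse, the aspartic protease cathepsin E, was at 28.5, 50.4 and 51.5 TPM and at 24.2 and 25.8 TPM, with a root mean square difference from Txnip of 0.029 on the centred log2 scale. Gclm, the modifier subunit of the first enzyme of glutathione synthesis, was at 19.3, 32.8 and 36.4 TPM and at 16.0 and 15.5 TPM, with a difference of 0.064.

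**Figure D2:**
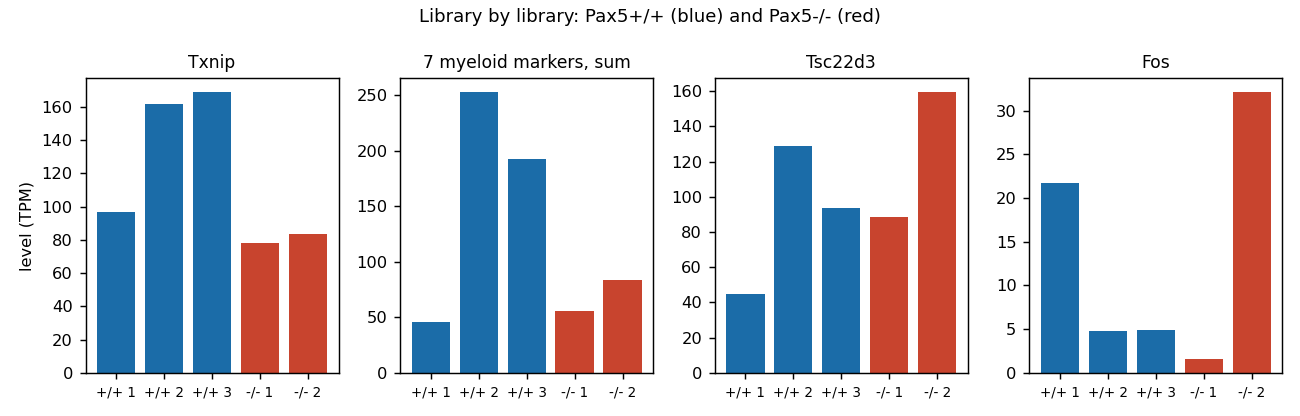
Levels (TPM, linear axis from 0) in each of the 5 mm9 libraries for Txnip, the sum of 7 myeloid markers, Tsc22d3 and Fos, with Pax5+/+ in blue and Pax5-/- in red. Txnip and the myeloid sum are both low in Pax5+/+ replicate 1 (96.6 and 45.9 TPM), whereas Tsc22d3 and Fos both differ between the Pax5-/- libraries.

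Among 14 relatives of Txnip (thioredoxins and their reductases, other alpha-arrestins, the MondoA and ChREBP glucose sensors, and glucose transporters), 12 were tested, of which 2 fell, 2 rose and 8 did not pass, with a median of 0.01. Among all genes tested, 21.5% were called lower and 15.6% higher, with a median of -0.12. Mlxip, which encodes MondoA, fell from 78.4 to 41.3 TPM (-0.89 ± 0.21 SE, adjusted p = 0.014), and its partner Mlx fell by 0.52 on the log2 scale. The alpha-arrestin Arrdc3 rose from 10.8 to 23.1 TPM (1.06 ± 0.20), opposite in direction to Txnip. The glucose transporter Slc2a3 (GLUT3) rose from 21.7 to 40.1 TPM (0.87 ± 0.13), with 20.7 to 22.9 TPM with Pax5 and 41.7 and 38.5 TPM without it. Slc2a1 (GLUT1), at 24.5 to 29.1 TPM and 31.3 and 32.1 TPM, did not pass (0.26, adjusted p = 0.155). The ratio of Slc2a1 to Slc2a3 was 1.12 to 1.35 with Pax5 and 0.75 and 0.84 without it. Thioredoxin itself (Txn1) was at 775 to 797 TPM and at 791 and 814 TPM, with a 95% interval of -0.18 to 0.23.

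Nr3c1 encodes the glucocorticoid receptor, a hormone-activated transcription factor that can kill lymphoid precursors. Its level was 19.5, 30.7 and 34.1 TPM with Pax5 and 30.1 and 28.7 TPM without it. The mutant values lay inside the Pax5+/+ range, and the difference was 0.10 ± 0.23 (SE) with a 95% interval of -0.43 to 0.64 (adjusted p = 0.748). The estimate turned to -0.13 without Pax5+/+ replicate 1 (adjusted p = 0.421), the lowest library.

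Tsc22d3, also called Gilz, is a leucine zipper gene on the X chromosome (mm9, 137074067 to 137135198, minus strand) that glucocorticoids induce. It was at 44.9, 129 and 93.9 TPM with Pax5 and at 88.3 and 159 TPM without it, the widest spread of the 8 genes. The coefficients of variation were 47.3% and 40.5%, and the groups overlapped. The difference was 0.54 ± 0.43 (SE), with a 95% interval of -0.46 to 1.53 (adjusted p = 0.356). Immediate early genes also varied within genotypes. Fos was at 21.7, 4.75 and 4.91 TPM with Pax5 and at 1.56 and 32.1 TPM without it, so its high libraries included the lowest and the highest for Tsc22d3. Of 9 immediate early and stress genes, 7 were tested, 2 of which fell (Egr1 from 20.3 to 4.13 TPM and the heat shock gene Hspa1b by 1.46 on the log2 scale) and 0 rose, with a median of -0.07. The shares over all genes were 21.5% lower and 15.6% higher, with a median of -0.12. The part of immediate early and stress genes in the spread of Tsc22d3 was not tested.

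Among the other members of the TSC22 family, Tsc22d1 was at 24.0, 28.9 and 22.6 TPM with Pax5 and at 73.2 and 79.4 TPM without it, a rise of 1.59 ± 0.14 (SE, limma, adjusted p = 0.00019). Tsc22d2 and Tsc22d4 did not pass, so that 1 of 3 tested family members rose and 0 fell, with a median of -0.14. Of all genes tested, 15.6% were called higher and 21.5% lower, with a median of -0.12. Tsc22d4 was the most abundant, at 442 to 591 TPM and 467 and 460 TPM.

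Of 17 partners and induced genes of the glucocorticoid receptor, 15 were tested, of which 5 fell, 1 rose and 9 did not pass, with a median of -0.41. Over all genes tested, 21.5% were called lower and 15.6% higher, with a median of -0.12. Among alternatives that kept both Pax5-/- libraries, the list had 3 lower and 0 higher without the intensity trend. Without Pax5+/+ replicate 2 it had 2 lower and 1 higher. The induced genes Sgk1, Fkbp5 and Dusp1 fell, whereas Per1 and Klf9 did not pass. Sgk1, a kinase of salt transport and cell survival, went from 43.6, 60.7 and 69.9 TPM to 19.1 and 20.9 TPM (-1.49 ± 0.20), with no overlap. Fkbp5, a brake on the receptor, fell from 76.7 to 50.6 TPM (-0.58 ± 0.16). The coactivators Ncoa1 and Ncoa2 fell by 1.16 and 0.53 on the log2 scale, and the chaperone gene Hsp90ab1 rose by 0.48. With both Pax5-/- libraries kept, the calls of Fkbp5 and Ncoa2 were lost without the intensity trend and without Pax5+/+ replicate 2 or 3. Those of Dusp1 and Hsp90ab1 were lost under both other scalings of the libraries. Ddit4, an mTORC1 inhibitor that glucocorticoids and energy stress induce, was at 65.2, 123 and 91.4 TPM and at 17.3 and 88.8 TPM, which is the same order within each genotype as Tsc22d3, and did not pass (-1.19, adjusted p = 0.157). The mineralocorticoid receptor gene Nr3c2 was at most at 0.072 TPM in the 8 libraries.

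Insr, which encodes the insulin receptor (mm9, chromosome 8, 3150922 to 3279617, minus strand), was lower in both Pax5-/- libraries. Its level was 7.63, 10.5 and 12.4 TPM with Pax5 and 6.52 and 5.83 TPM without it. The groups did not overlap, and the difference of -0.65 ± 0.23 (SE; 95% interval -1.20 to -0.11) missed the threshold after adjustment over all genes (limma, adjusted p = 0.0615). It passed in 3 of 14 alternatives, without Pax5+/+ replicate 1 (adjusted p = 0.0119) and under both other scalings of the libraries (0.0457 and 0.0243). Without the other single libraries the adjusted p was 0.109 to 0.333, and without the filter on low values 0.113.

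Of 13 other genes of the insulin receptor pathway, 10 were tested, of which 6 fell, 1 rose and 3 did not pass, against 21.5% of all genes called lower and 15.6% higher. The list was chosen with earlier results of these data known, so this count is only a description. The median of the 10 genes was -0.72, against the -0.12 of all genes. It was -0.30 with a filter at 5 TPM and -0.27 without Pax5+/+ replicate 3, with 9 genes tested in each. Without Pax5+/+ replicate 2 or 3, 4 genes were called lower and 1 higher. Irs2, the adaptor of the insulin and IGF1 receptors, was at 25.7, 43.9 and 27.2 TPM with Pax5 and at 7.05 and 6.74 TPM without it (-2.10 ± 0.24 SE). The receptor genes Igf1r and Igf2r fell from 14.4 to 6.18 TPM and from 26.4 to 10.8 TPM (-1.14 ± 0.23 and -1.25 ± 0.15). Foxo1, the forkhead factor that insulin signalling keeps out of the nucleus, fell from 174 to 77.8 TPM (-1.14 ± 0.16), whereas Foxo3 had a 95% interval of -0.44 to 0.34. Irs1 fell from 0.70, 1.15 and 1.82 TPM to 0.19 and 0.07 TPM, and the call of Shc1 (-0.30) was lost in 10 of 14 alternatives. Grb10, an inhibitory adaptor of the insulin receptor, was the gene that rose, from 3.67 to 11.7 TPM (1.55 ± 0.21). Irs4 was listed at 0 in all 8 libraries.

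Cnr2, the cannabinoid receptor of immune cells (mm9, chromosome 4, 135451309 to 135476122, plus strand), had the lowest level of the 8 genes in every group. It was at 2.62, 2.83 and 2.31 TPM with Pax5 and at 1.53 and 2.31 TPM without it, so the groups touched. The difference was -0.37 ± 0.26 (SE), with a 95% interval of -0.96 to 0.23 (adjusted p = 0.296). Of 11 genes of the endocannabinoid system, 7 were tested, of which 2 fell, 1 rose and 4 did not pass, with a median of -0.21. For all genes tested, the shares were 21.5% lower and 15.6% higher and the median was -0.12. Mgll, which degrades the ligand 2-arachidonoylglycerol, was at 5.12, 12.0 and 12.2 TPM and at 2.34 and 2.11 TPM (-1.82 ± 0.37), and Napepld, which makes anandamide, fell by 0.82 on the log2 scale. Gpr18, a lipid receptor, rose from 21.3 to 74.7 TPM (1.78 ± 0.12). Cnr1, the cannabinoid receptor of the nervous system, was listed at 0 in all 8 libraries.

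Stk11, the gene of the upstream kinase LKB1, was the most abundant member in both genotypes. Its level was 238, 273 and 283 TPM with Pax5 and 223 and 195 TPM without it, without overlap. The difference of -0.34 ± 0.11 (SE; 95% interval -0.61 to -0.07) lay at the threshold after adjustment (limma, adjusted p = 0.0526) and passed in 2 of 14 alternatives, without Pax5+/+ replicate 1 (0.0278) and with a filter at 5 TPM (0.0483). The adjusted p reached 0.338 without Pax5-/- replicate 2, and the difference was -0.22 with median-ratio scaling (0.143). The gene (mm9, chromosome 10, 79578548 to 79593427, plus strand) has the same overlap mark as Txnip, and its end overlaps Dos on the opposite strand. Dos was at 12.8 to 19.0 TPM with Pax5 and at 15.1 and 13.3 TPM without it.

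LKB1 is active in a complex with a STRAD pseudokinase and the scaffold MO25. The STRAD genes changed in opposite directions. Strada was at 59.2, 60.3 and 53.7 TPM with Pax5 and at 80.2 and 76.2 TPM without it (0.44 ± 0.11 SE), whereas Stradb fell from 19.4 to 12.5 TPM (-0.60 ± 0.16). Among alternatives that kept both Pax5-/- libraries, the call of Stradb was lost without Pax5+/+ replicate 2. The ratio of Strada to Stradb was 2.47 to 3.46 with Pax5 and 6.71 and 5.81 without it. The MO25 genes Cab39 and Cab39l did not pass.

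Prkaa1, the AMPK alpha1 subunit (mm9, chromosome 15, 5093861 to 5131899, plus strand), was at 10.9, 11.4 and 14.0 TPM with Pax5 and at 13.4 and 13.5 TPM without it. The mutant values lay inside the Pax5+/+ range, and the difference was 0.15 ± 0.17 (SE), with a 95% interval of -0.25 to 0.55 (adjusted p = 0.521). Prkab1, the beta1 subunit (mm9, chromosome 5, 116463595 to 116474517, minus strand), was at 70.1, 67.1 and 61.6 TPM and at 59.3 and 59.8 TPM. Its libraries did not overlap but differed by only -0.15 ± 0.11 (SE), with a 95% interval of -0.40 to 0.10 (adjusted p = 0.302), and -0.12 was the median of all genes.

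The composition of AMPK by transcript level was led by the alpha1, beta1 and gamma1 genes. Prkaa2 was at 0.29 TPM or less in the 5 mm9 libraries, and Prkag3 at 0.04 TPM in each Pax5+/+ library and at 0 in both Pax5-/- libraries. Prkab2 was at 1.65 to 3.88 TPM, and the ratio of Prkab1 to Prkab2 was 15.9 to 33.2 with Pax5 and 32.8 and 36.1 without it. Prkag1 was at 112 to 128 TPM and at 95.3 and 106 TPM. The gamma2 gene Prkag2 was the AMPK subunit that rose, from 5.67, 5.02 and 6.40 TPM to 9.55 and 8.55 TPM (0.63 ± 0.19 SE, adjusted p = 0.039). Among alternatives that kept both Pax5-/- libraries, this call was lost without the filter on low values and without Pax5+/+ replicate 2. The ratio of Prkag1 to Prkag2 was 19.9 to 22.3 with Pax5 and 9.99 and 12.4 without it.

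**Figure D3:**
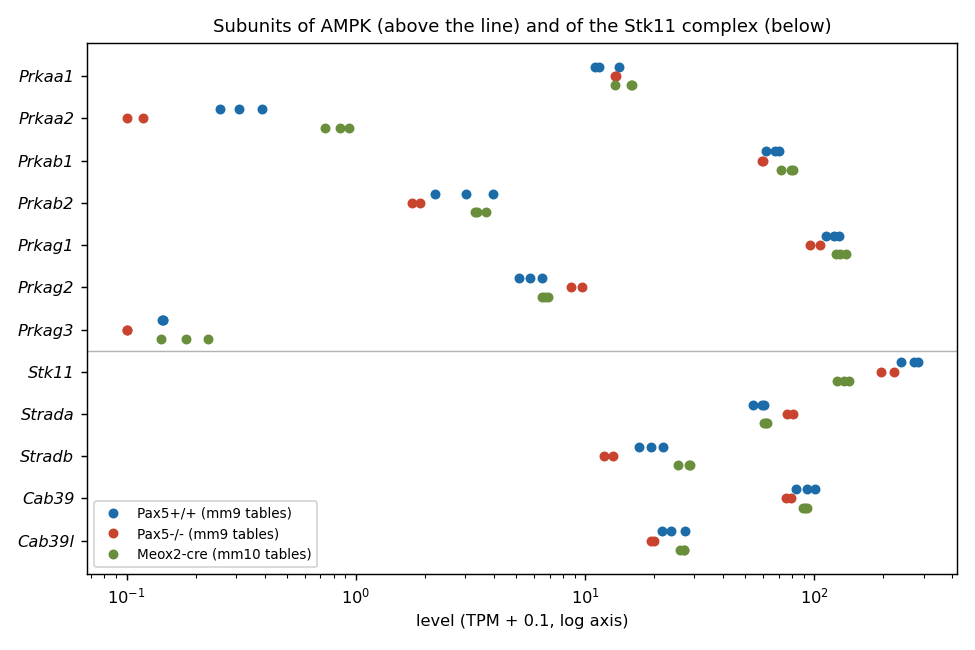
Levels of the AMPK subunit genes and of Stk11 with its complex partners in every library (TPM + 0.1, log axis), with Pax5+/+ in blue, Pax5-/- in red and Meox2-cre in green. The alpha1, beta1 and gamma1 genes lie above their paralogues in all groups, and the Pax5-/- points lie to the right for Prkag2 and Strada and to the left for Stradb.

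Of 25 genes around AMPK, 23 were tested, of which 3 fell, 6 rose and 14 did not pass, with a median of -0.19. Among all genes, 21.5% were called lower and 15.6% higher, with a median of -0.12. The largest fall in the AMPK list was in Ppm1e, a phosphatase of AMPK, which was at 8.96, 12.2 and 14.1 TPM with Pax5 and at 0.75 and 0.61 TPM without it (-3.36 ± 0.25 SE). Its relative Ppm1f rose from 50.7 to 128 TPM (1.33 ± 0.12). The folliculin partner Fnip2 rose from 1.49 to 7.94 TPM (2.14 ± 0.35), whereas Fnip1 had a 95% interval of -0.94 to 0.26. The AMPK kinase Camkk1 rose from 1.13 to 3.53 TPM, and the AMPK substrate Acacb from 0.50 to 4.36 TPM. Tsc2, the mTORC1 inhibitor that AMPK phosphorylates, fell by 0.38 on the log2 scale.

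**Figure D4:**
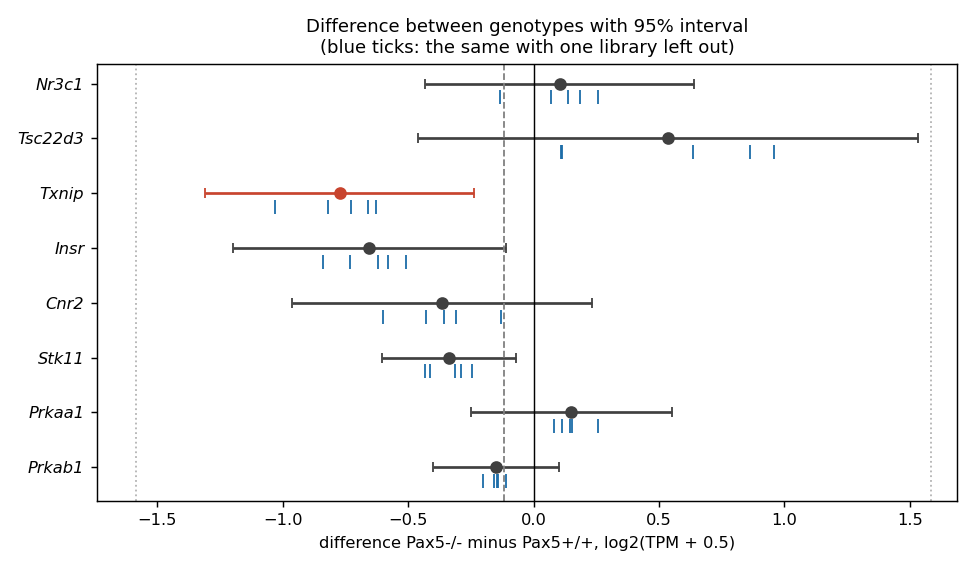
Difference between Pax5-/- and Pax5+/+ libraries for each of the 8 genes on the log2(TPM + 0.5) scale, with the 95% interval and, as blue ticks, the estimates with 1 library left out. The dashed line is the median of all genes (-0.12), the dotted lines mark 3-fold, and Txnip (red) is the member past an adjusted p of 0.05.

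Over all 7 lists, 77 of 92 genes were tested, of which 20 fell, 12 rose and 45 did not pass, against 21.5% lower and 15.6% higher among all genes. The lists were chosen with earlier results of these data known, so these counts are only a description. Without Pax5+/+ replicate 1, 23 fell and 12 rose. Leaving out a Pax5-/- library reduced this to 7 and 6 without replicate 1 and to 8 and 7 without replicate 2. The calls of Hsp90ab1, Dusp1, Shc1 and Tsc2 were lost under both other scalings of the libraries. The calls of 13 genes held in every alternative in which they were tested, 7 lower (Sgk1, Irs2, Igf2r, Foxo1, Ppm1e, Egr1 and Hspa1b) and 6 higher (Grb10, Gpr18, Tsc22d1, Ppm1f, Acacb and Slc2a3). Thresholds of the study's methods were passed by 4 genes that were lower (Ppm1e, Irs2, Mgll and Egr1) and by 3 that were higher (Fnip2, Gpr18 and Tsc22d1), against 3.15% and 2.71% of all genes.

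**Figure D5:**
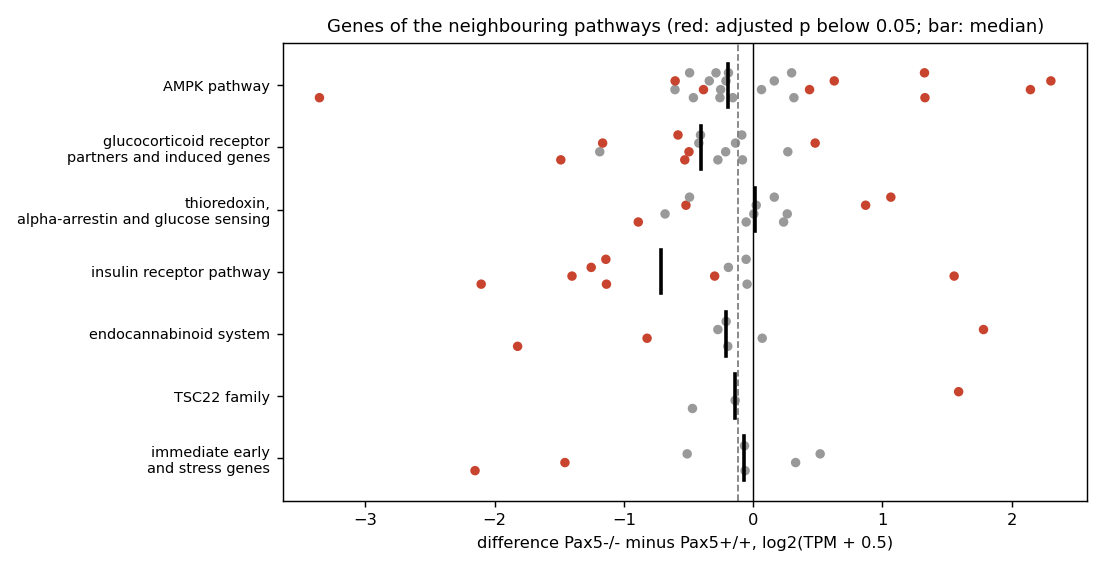
Difference between Pax5-/- and Pax5+/+ libraries for the tested genes of each list on the log2(TPM + 0.5) scale, 1 point per gene, with genes past an adjusted p of 0.05 in red, a bar at the median of each list and a dashed line at the median of all genes. The list medians run from -0.72 (insulin receptor pathway) to 0.01 (thioredoxin, alpha-arrestin and glucose sensing). That of the insulin receptor pathway is -0.30 with a filter at 5 TPM.

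The 8 genes spanned a wide range of levels. In the Pax5+/+ libraries the order of means was Stk11, Txnip, Tsc22d3, Prkab1, Nr3c1, Prkaa1, Insr and Cnr2. The ranges of Txnip and Tsc22d3, of Tsc22d3 and Prkab1, and of Prkaa1 and Insr overlapped, so these neighbours were not separated by more than their spread. In the Pax5-/- libraries Tsc22d3 (124 ± 50.1 TPM, SD, n = 2) was above Txnip, the other neighbours kept their order, and no ranges overlapped. The ratio of Txnip to Stk11 was 0.41 to 0.60 with Pax5 and 0.35 and 0.43 without it, which overlapped.

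In the Meox2-cre libraries the 8 genes varied little, with coefficients of variation of 1.86% (Tsc22d3) to 9.24% (Prkaa1). Txnip was the most abundant, at 217 ± 14.1 TPM, followed by Stk11 at 134 ± 7.88 TPM and Tsc22d3 at 95.6 ± 1.78 TPM (SD, n = 3 for each). Nr3c1 was at 43.8, 42.0 and 40.1 TPM, Insr at 14.2, 12.9 and 14.2 TPM, and Cnr2 at 3.24, 3.22 and 3.07 TPM. The AMPK genes Prkab1 and Prkaa1 were at 71.7 to 80.4 TPM and at 13.4 to 15.9 TPM, and the ranges of Prkaa1 and Insr again overlapped. These tables were made from another genome build with another aligner, and Dos, the neighbour of Stk11, was at 0.51 to 0.70 TPM in them, so no difference from the mm9 tables was tested. Tsc22d3, with the widest spread in the mm9 libraries, had the narrowest here. Fos was at 7.23, 3.18 and 3.19 TPM in these libraries.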

How the data were processed

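RNA-seq of sorted pro-B cells was available for 8 libraries, 1 table each. The deposited values are TPM, which the authors derived from the reads and the length of each gene. For the Pax5+/+ and Pax5-/- libraries, ribosomal RNA reads were removed by the authors, who aligned the rest to mm9 with TopHat 1.4.1a and counted on a modified refGene annotation with featureCounts 1.5.0. The Meox2-cre tables were made with STAR 2.4.2a on mm10. No counts are in these tables, so no count test was run and the depth is unknown. Groups came from the labels.

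The genotypes were compared by limma 3.58.1 (R 4.3.3; lmFit, eBayes with trend) on log2(TPM + 0.5) with no covariate. The 12066 genes whose mean exceeded 1 TPM in either genotype were tested, with Benjamini-Hochberg adjustment over all of them. Differences understate the change of genes near the pseudocount. Calls needed an adjusted p below 0.05. The study's thresholds add more than 3-fold, more than 5 TPM and the exclusion of immunoglobulin and T cell receptor genes. The Meox2-cre libraries were described without a test. The fit was also run on simulated data with independent noise, without shifts shared by a whole library, and nothing is concluded from that run. The members and the gene lists were chosen with earlier results of these data known. Named genes were the 8 members, Pax5, the 2 genes nearest to each called member in pattern, and list genes that were called or at 0; the other genes named were chosen after their values were seen. The lists were AMPK pathway, glucocorticoid receptor, thioredoxin and glucose sensing, insulin receptor pathway, endocannabinoid system, TSC22 family, and immediate early and stress genes. Markers of other cell types were summed by library. Besides those in the text, the sums are given for Pax5+/+ and then for Pax5-/- libraries. Later B cell markers summed to 5.90 to 8.09 and 0.55 to 0.68 TPM. The T cell sums were 1.03 to 1.80 and 4.32 to 6.76 TPM, without Pax5 mainly Cd4 (3.97 and 5.88 TPM). Cd3e was at 0 in both Pax5-/- libraries, and Cd3d, Cd3g and Cd8a overlapped between genotypes. The NK cell sums were 8.03 to 14.6 and 4.80 to 8.39 TPM, with Klrb1c and Prf1 called lower and Gzma higher. Plasmacytoid dendritic markers summed to 380 to 432 and 2432 to 3258 TPM, without Pax5 mainly Ly6d. Plasma cell markers summed to 97.3 to 107 and 632 to 790 TPM, without Pax5 mainly Igj. Promoters came from RefSeq, and the windows of 6 of the 8 members were searched. Coordinates of genes are from GENCODE on mm9. The alternatives were other pseudocounts, filters, eBayes settings and scalings, removal of immunoglobulin and T cell receptor genes, and leaving out each library. The scripts used pandas 2.3.3, numpy 2.4.6, matplotlib 3.10.9 and Python 3.11.15.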

Additional observations from a re-analysis of the deposited data

How the results depend on the processing

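The count of members called lower (1) was 0 without a filter on low values and 0 without the intensity trend, and 2 with a filter at 5 TPM, 2 with median-ratio scaling and 2 with quantile normalization. It ranged from 0 to 3 with 1 library left out, and no member was called higher under any of the 14 alternatives. Txnip kept its direction in all 14 (-1.03 to -0.63) and passed in 8, with adjusted p-values from 0.00097 to 0.207. Its call was lost without any single library other than Pax5+/+ replicate 1, without the filter (0.0772) and without the trend (0.0747). The estimate of Nr3c1 ranged from -0.13 to 0.26 with 1 library left out and was negative only without Pax5+/+ replicate 1. Over all genes, the count called lower (2596) ranged from 825 to 3233 and the count called higher (1885) from 704 to 1977 with 1 library left out. Leaving out a Pax5-/- library leaves a lone library, which is assumed to vary like the others, and so fewer samples. The scalings moved the median of all genes from -0.12 to -0.00 and -0.02. Stk11 passed with the filter at 5 TPM (0.0483), which drops Cnr2. All 32 alternative values of the Meox2-cre levels lay within 1 SD, but this is not a check. Leaving out 1 of 3 libraries cannot move a mean by that much. The immunoglobulin and T cell receptor genes taken out made up only 0.67% to 0.69% of TPM. No paired analysis was possible because no replicate number is given in the labels. The depth in reads is unknown, which limits what can be said of Cnr2 and of genes near 0.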
